A study of Mus musculus with 6 samples.

Results

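Transcripts of the endocannabinoid system were followed in prefrontal cortex from juvenile (postnatal day 28) C57BL/6J mice, of which 3 samples were wild type (WT) and 3 were titled Hetero with the genotype Cyfip2 mutant. The 8 genes were chosen by symbol, as the rows of the table of 17889 genes that GENCODE M21 maps to the receptor gene Cnr1, to Dagla, Daglb and Napepld, which encode synthesizing enzymes, and to Mgll, Abhd6, Abhd12 and Faah, which encode degrading enzymes. All 8 were found, with 1 row each, and all 8 had a mean of at least 10 and were tested. The mutated gene, Cyfip2, codes for a component of the WAVE complex that controls actin assembly. The labels state neither which part of Cyfip2 is altered nor whether each sample is a separate animal, so the spread behind the p-values may be technical in part.

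Endocannabinoids are lipid messengers made on demand in the postsynaptic neuron. They travel backwards across the synapse and act on the CB1 receptor, the Cnr1 product, on axon terminals, where they lower transmitter release. The main one in brain, 2-arachidonoylglycerol (2-AG), is made by the diacylglycerol lipases and broken down by monoacylglycerol lipase and the ABHD hydrolases. The other, anandamide, is an N-acylethanolamine that can be released by NAPE-PLD and is hydrolysed by fatty acid amide hydrolase. In cortex the CB1 receptor is known for its high density on terminals of cholecystokinin interneurons, with lower amounts on glutamatergic terminals.

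The values are normalized counts, scaled by the authors so that the libraries can be compared. Column totals lay between 29879143 and 30735443, and the number of assigned reads, estimated from how low values are spaced, was between 25500000 (WT sample 3) and 43900000 (Hetero sample 3). At that depth the 8 genes had an estimated 304 (Napepld) to 13165 (Mgll) reads per library, and the largest counting error was 5.74% for Napepld and at most 3.19% for the others. Hetero sample 3 lay farthest from the gene medians, with a median absolute deviation of 0.098 on the log2 scale against 0.057 to 0.078 in the others. Cyfip2 itself was lower in the 3 Hetero than in the 3 WT samples, with a ratio of 0.672 (95% interval 0.6 to 0.754), and it had an adjusted p of 0.31 in limma over all 14969 tested genes, while its paralog Cyfip1 had a ratio of 1.01 (95% interval 0.908 to 1.11). The Cyfip2 adjusted p in limma was 0.0016 with a replicate block, 0.00031 with the residual component as covariate and 0.013 without the third sample of both groups. The residual component was taken from the residuals of these same data after the genotype fit. It left the Cyfip2 log2 change at -0.57, so the smaller p with it is not separate evidence. Across all 14969 tested genes limma without these changes called 0 in either direction at an adjusted p under 0.05 (0% of those tested), and 573 had an unadjusted p under 0.05.

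RefSeq windows around transcription starts (GRCm38.p6, 250 bases before to 50 after) were matched for 6 of the 8 genes, without Dagla and Abhd12. Windows of Cnr1, the receptor gene, and Daglb, which had the greatest fitted difference of the 8, are printed for contrast, since they had the most and the fewest CpG dinucleotides of the 6 genes. CpG dinucleotides are in capitals. For Cnr1, which has 3 listed starts, the window nearest to the GENCODE start is shown (plus strand, chr4:33924394-33924693), and for Daglb the only one (plus strand, chr5:143464243-143464542). The listed Daglb start lies 91 bases before the GENCODE start, and its window ends before the GENCODE gene begins. For Napepld the listed start lies 226 bases before the GENCODE start.
Cnr1: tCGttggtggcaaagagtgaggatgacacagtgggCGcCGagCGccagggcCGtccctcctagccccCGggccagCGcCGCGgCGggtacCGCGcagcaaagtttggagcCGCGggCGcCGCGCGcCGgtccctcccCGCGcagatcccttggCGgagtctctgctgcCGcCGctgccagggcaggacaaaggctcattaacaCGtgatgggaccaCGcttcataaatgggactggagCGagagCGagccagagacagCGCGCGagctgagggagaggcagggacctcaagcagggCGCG
Daglb: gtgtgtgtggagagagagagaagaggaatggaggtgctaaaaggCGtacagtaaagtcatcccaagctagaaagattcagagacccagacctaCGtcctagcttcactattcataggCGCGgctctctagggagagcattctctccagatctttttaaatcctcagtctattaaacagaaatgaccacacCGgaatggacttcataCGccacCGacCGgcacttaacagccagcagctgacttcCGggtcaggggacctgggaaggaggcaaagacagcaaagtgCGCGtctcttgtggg
The Cnr1 window held 33 CpG dinucleotides, more than 91.4% of the 32851 windows in the RefSeq table, and the Daglb window held 11, against a median of 7 over all windows. The windows of Mgll (32), Napepld (28), Abhd6 (24) and Faah (16) lay between them. The letters TATAAA, searched on both strands, occurred in 0 of the 6 windows and in 13.6% of all windows. The GC box GGGCGG, also searched on both strands and overlapping CpG by its letters, occurred in those of Mgll, Faah and Abhd6, and in 35.7% of all windows. These are descriptions of the sequence, and the expression data do not test them.

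Levels of different genes were compared per kilobase of exon, using the union of annotated exons. Abhd12 had the highest level, with 2980 ± 91.1 normalized counts per kilobase (SD, n = 6), which placed it above 97.8% of tested genes. Its product is a membrane hydrolase that also cleaves lysophosphatidylserine. Mgll followed with 1840 ± 62.0 per kilobase (SD, n = 6), above 95.9% of tested genes, and Dagla with 968 ± 25.6 (SD, n = 6), above 90.9%. Each of these 3 had a lowest library above the highest library of the next gene in the order.

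Cnr1 came next with 719 ± 67.3 normalized counts per kilobase (SD, n = 6), above 87.0% of tested genes. Abhd6, whose product is a 2-AG hydrolase of the postsynaptic side, had 664 ± 59.2 per kilobase (SD, n = 6). These neighbours did not differ beyond their spread, although Cnr1 was the higher one in 5 of 6 libraries. Faah had 542 ± 26.3 per kilobase (SD, n = 6) and did not separate fully from Abhd6 either. With the longest annotated transcript as the length, Faah (767) moved ahead of Abhd6 (705), so the order of these genes depends on the length used.

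Daglb, the second diacylglycerol lipase gene, had only 124 ± 12.8 normalized counts per kilobase (SD, n = 6). Napepld, whose product is a phospholipase D, had 106 ± 6.89 (SD, n = 6). These lowest members stood at the 46.7th and 42.7th percentile of the tested genes, near their median of 141 per kilobase, and Abhd12 exceeded Napepld by 28.2-fold. The union of exons of Daglb (9567 bases) is much longer than its longest transcript (4877 bases), and with the latter its level was 243 per kilobase. A part of the Daglb exons, 24.1% of their bases, lies opposite to exons of Rac1 on the other strand. The libraries were made with a stranded kit, but how strand was used in counting is not given in the sources used here, so the Daglb value is uncertain. Rac1 read 7788, 7673 and 7867 in WT and 7826, 7957 and 7208 in Hetero.

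**Figure D1:**
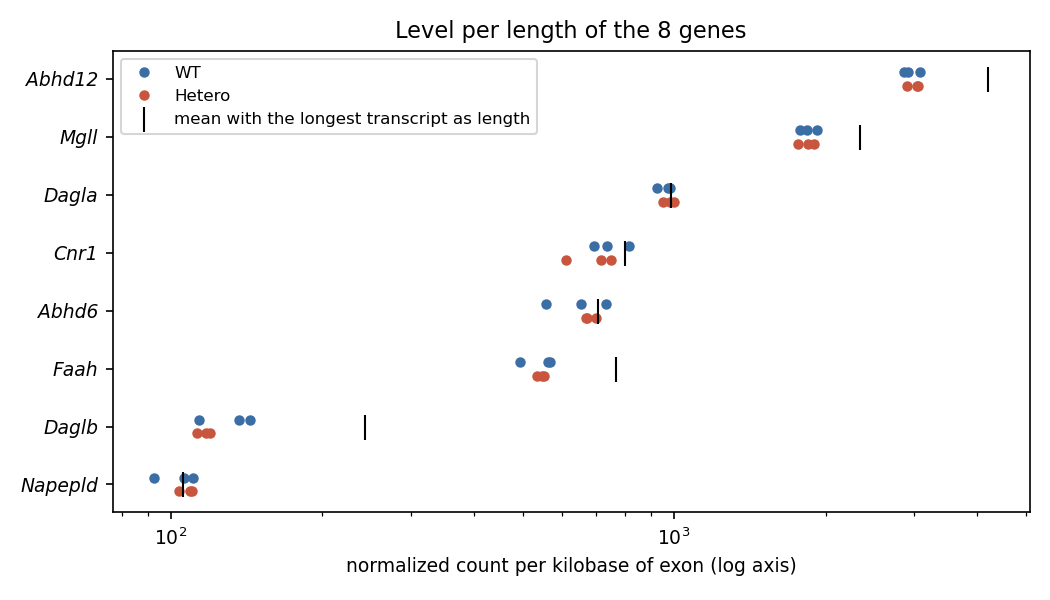
Normalized counts per kilobase of exon (log axis) of the 8 genes in 3 WT (blue) and 3 Hetero (red) libraries; each point is a library, and the black tick is the mean over libraries with the longest transcript as length. Abhd12, Mgll and Dagla stand apart from each other and from the rest, and Daglb and Napepld lie lowest.

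The receptor was examined first in the comparison of genotypes. Cnr1 (ENSMUSG00000044288, chromosome 4, 33924593 to 33948831 in GRCm38, plus strand, protein coding) read 5242, 4731 and 4474 in WT and 4821, 4614 and 3927 in Hetero. The highest value belonged to a WT and the lowest to a Hetero library, and the groups overlapped. Its log2 change was -0.11 (standard error 0.09), a ratio of 0.924 (95% interval 0.806 to 1.06), and an adjusted p of 1 in limma. Without Hetero sample 3 the log2 change was -0.03, and without WT sample 1 it was -0.05, so much of the fitted difference rested on these libraries. Markers of CCK and VIP interneurons (7 of 7 in the table, none at 0) summed to 14926 to 15861 in WT and 14631 to 15188 in Hetero, with a median log2 change of 0.00. Most of this sum came from Cck (WT mean 9520) and Gad2 (WT mean 4100). Gad2 is also in the list for all inhibitory neurons, so the sum does not stand for these interneurons alone. Which cells the Cck transcripts came from was not tested either. In this bulk tissue, fewer cells of a type and less RNA per cell cannot be told apart.

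Over the 6 libraries genes whose log2 values followed Cnr1 closely were Adat2 (Pearson r = 0.994), St8sia5 (0.991), Pip4k2a (0.990) and Slc36a4 (0.987). The libraries share tissue and scaling, and 388 of 14102 protein coding genes compared had an r above 0.9 over these 6 points. St8sia5 encodes a sialyltransferase.

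The genes of 2-AG synthesis were next. Dagla (ENSMUSG00000035735, chromosome 19, 10245265 to 10304877, minus strand), the main lipase of synaptic 2-AG synthesis in adult brain, read 5579, 5629 and 5323 in WT and 5627, 5742 and 5464 in Hetero. The 6 libraries lay within 1.08-fold of each other, and the groups overlapped. Its ratio of Hetero to WT was 1.02 (95% interval 0.941 to 1.10). The within-group SD of Dagla, 0.040 on the log2 scale, was smaller than that of 95% of tested genes.

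Daglb (ENSMUSG00000039206, chromosome 5, 143464584 to 143505942, plus strand), the paralog known from microglia and other cells, read 1088, 1372 and 1305 in WT and 1122, 1080 and 1146 in Hetero. WT samples 2 and 3 lay above all Hetero samples, while WT sample 1 lay among them. The log2 change of Daglb was -0.16 (standard error 0.09), a ratio of 0.893 (95% interval 0.777 to 1.03), with an unadjusted p of 0.0995 and an adjusted p of 1 in limma. Without WT sample 1 the log2 change was -0.26 and the unadjusted p 0.00636, with an adjusted p of 0.87. Without WT sample 2 the log2 change was -0.10. Microglia markers, 10 of 10 in the table and none at 0, summed to 13667 to 15271 in WT and 12894 to 14220 in Hetero, with 10 of 10 lower fitted values and a median log2 change of -0.10. Their part in the Daglb values was not tested.

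The ratio of Dagla to Daglb within a library is free of any scaling factor shared by all genes of that library. Whether values were also scaled gene by gene is not given in the sources used here. On the log2 scale of normalized counts it was 2.36, 2.04 and 2.03 in WT and 2.33, 2.41 and 2.25 in Hetero, and the groups overlapped. Per kilobase of union exon length, Dagla exceeded Daglb by 6.79-fold to 8.85-fold, and with the longest transcript as length by 3.53-fold to 4.6-fold.

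For anandamide-type lipids, Napepld (ENSMUSG00000044968, chromosome 5, 21662901 to 21701396, minus strand) read 420, 439 and 367 in WT and 433, 437 and 410 in Hetero. WT sample 3 was the lowest, and the groups overlapped. The ratio of Hetero to WT was 1.05 (95% interval 0.903 to 1.21), and its WT spread was 9.16% of the mean, beside an estimated counting error of up to 5.74%. Faah (ENSMUSG00000034171, chromosome 4, 115967145 to 116017926, minus strand) read 3871, 4398 and 4439 in WT and 4325, 4180 and 4273 in Hetero. WT sample 1 was the lowest library and the Hetero values lay between the WT values. The ratio for Faah was 1.01 (95% interval 0.912 to 1.11). The log2 ratio of Napepld to Faah was -3.38 in WT (SD 0.20, n = 3) and -3.32 in Hetero (SD 0.06, n = 3).

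The 2-AG hydrolase genes came last. Mgll (ENSMUSG00000033174, chromosome 6, 88724412 to 88828360, plus strand), which encodes monoacylglycerol lipase, read 9749, 9010 and 9340 in WT and 9619, 9354 and 8965 in Hetero. The groups covered nearly the same range, and the ratio was 0.994 (95% interval 0.916 to 1.08). Abhd12 (ENSMUSG00000032046, chromosome 2, 150832493 to 150904741, minus strand) read 8083, 8698 and 8247 in WT and 8623, 8200 and 8569 in Hetero. Its ratio was 1.01 (95% interval 0.937 to 1.10). Abhd6 (ENSMUSG00000025277, chromosome 14, 8002902 to 8056763, plus strand) read 1733, 1543 and 1319 in WT and 1581, 1655 and 1589 in Hetero. Its highest and lowest values were both in WT, and the ratio was 1.06 (95% interval 0.914 to 1.22).

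**Figure D2:**
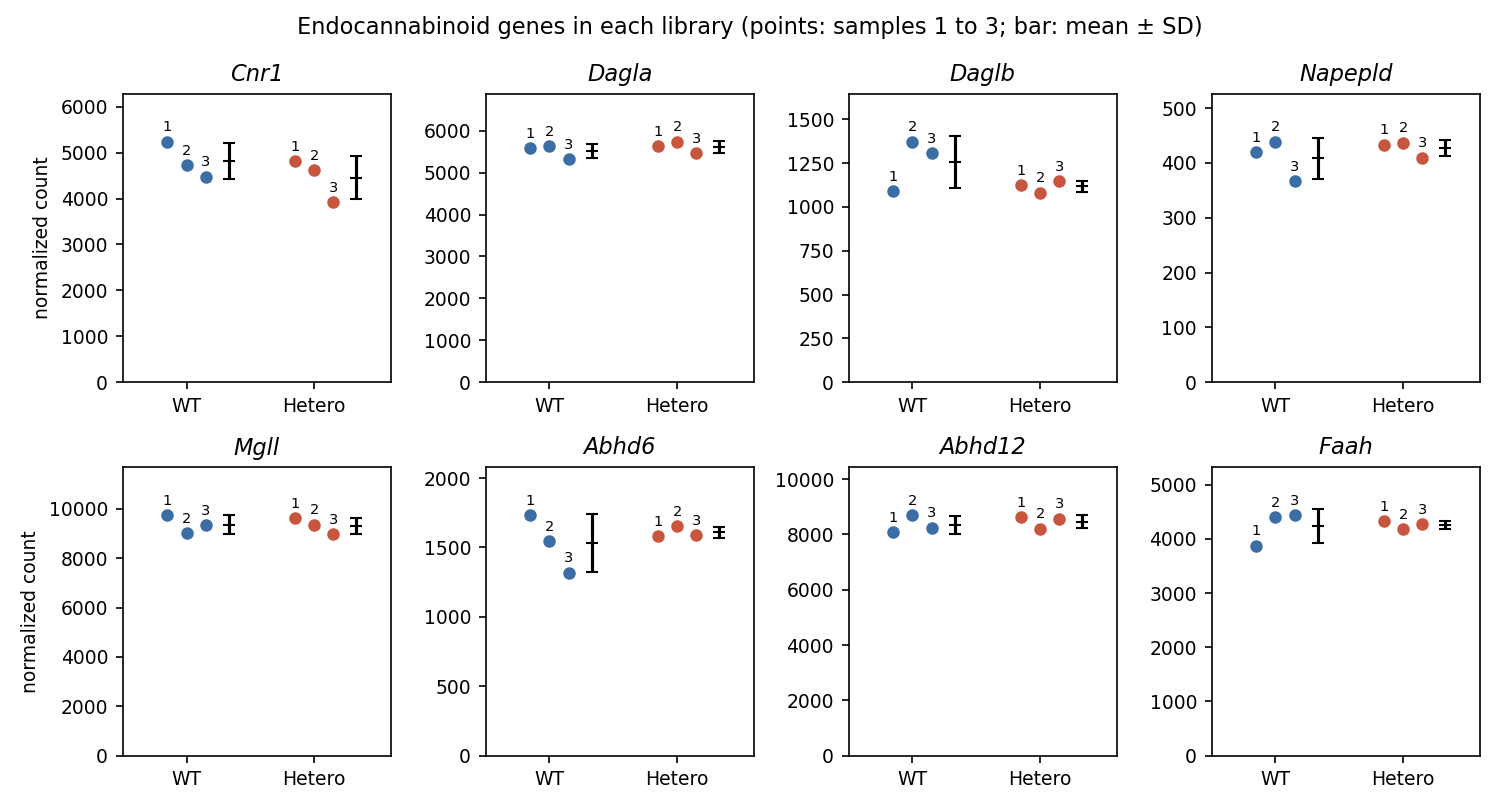
Normalized counts of the 8 genes in each library (linear axes from 0); points are samples 1 to 3 of WT (blue) and Hetero (red), and the bar beside them is the mean ± SD. The groups overlap for all 8 genes, with the highest ratio of the highest to the lowest library for Cnr1 (1.33, from 3927 to 5242).

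As a set, 0 of the 8 genes passed the adjusted threshold in limma, 0 had an unadjusted p under 0.05, where 3.83% of all tested genes did, and 0 had groups that did not overlap, where 8.72% did. The fitted value was higher in Hetero for 5 and lower for 3, with a median log2 change of 0.02 against -0.002 over all tested genes. The 95% interval of the ratio lay within 1.5-fold in both directions for all 8, as it did for 80.9% of tested genes. Over the 8 genes these intervals reached from 0.777 (Daglb) to 1.22 (Abhd6). A ratio of Hetero to WT beyond these limits was outside the interval of each of the 8 genes. A ratio between the limits lay within the intervals of some genes and could be outside those of others. For Dagla, Mgll, Abhd12 and Faah the intervals were narrower, between 0.912 and 1.11.

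**Figure D3:**
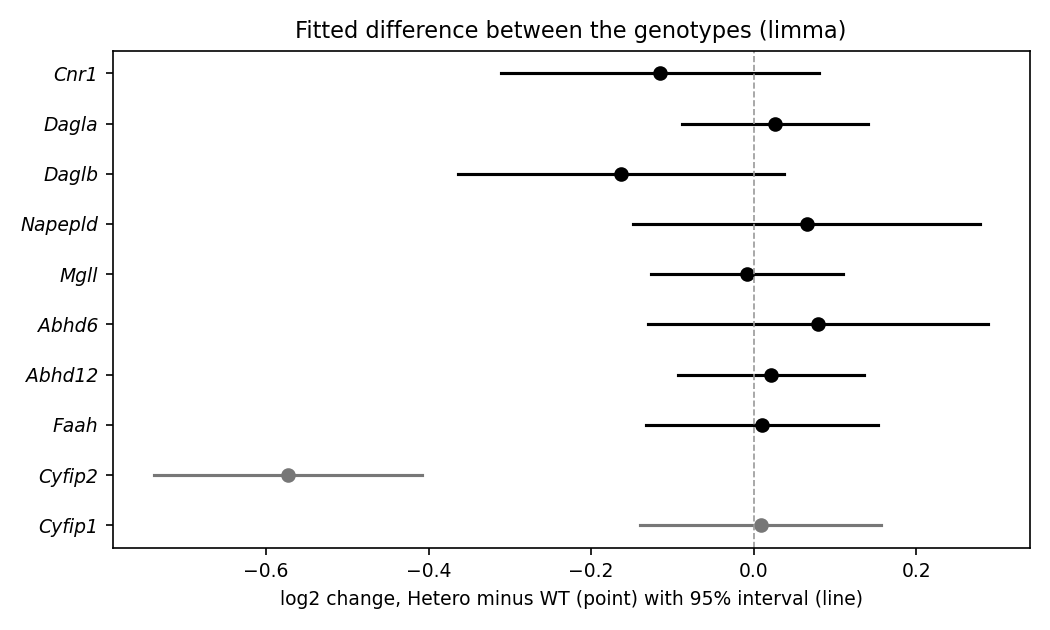
Log2 change of Hetero against WT from limma with its 95% interval for the 8 genes (black) and for Cyfip2 and Cyfip1 (grey). The intervals of the 8 genes all include 0 and stay between -0.36 and 0.29, while that of Cyfip2 lies below 0.

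The 4 hydrolase genes kept nearly the same proportions in every library. Of their summed level per kilobase, Abhd12 made up 49.3% ± 1.58 in the WT samples, against 49.5% ± 0.932 in those titled Hetero (SD, n = 3 per group). Mgll made up 30.8% ± 1.41 and 30.3% ± 0.820, Abhd6 10.8% ± 1.36 and 11.2% ± 0.437, and Faah 9.03% ± 0.729 and 8.98% ± 0.0750 (SD, n = 3 each). The groups overlapped for each of these shares. The log2 ratio of Abhd6 to Mgll was lowest in WT sample 3 (-2.82) and lay between -2.61 and -2.49 elsewhere, and that of Dagla to Mgll differed by 0.03 between the group means.

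Single libraries set the spread of several genes. Seen against each gene's mean over the 6 libraries, Abhd6 was 0.25 below it and Napepld 0.18 below it in WT sample 3, on the log2 scale, while Daglb was 0.22 above it in WT sample 2. Cnr1 was 0.18 above its mean in WT sample 1 and 0.23 below it in Hetero sample 3. The SD of the log2 values was smaller in Hetero than in WT for 7 of the 8 genes, with Cnr1 the exception, and for 46.2% of all tested genes. This difference in spread was not tested. No library was high or low for all 8 genes: at most 7 lay above their own mean, in Hetero sample 1.

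**Figure D4:**
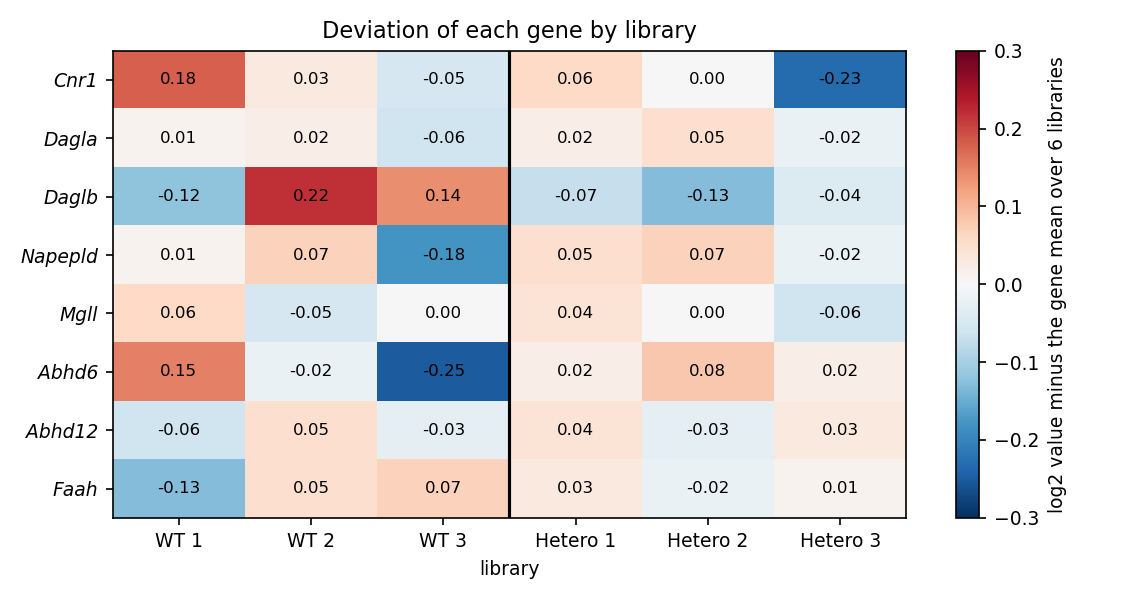
Log2 value of each gene minus its mean over the 6 libraries; rows are the 8 genes, columns the 3 WT and 3 Hetero libraries, and the colour scale runs from -0.3 (blue) to 0.3 (red). The farthest cells are Abhd6 in WT sample 3 (-0.25), Cnr1 in Hetero sample 3 (-0.23) and Daglb in WT sample 2 (0.22).

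Other genes of the system were taken from 6 lists by role, with 60 names, 53 of them in the table and 49 tested. In limma 0 of the 49 passed the adjusted threshold, 21 had a higher and 28 a lower fitted value in Hetero, and their median log2 change was -0.01. At an unadjusted p under 0.05 there were 6, or 12.2%, beside 3.83% of all tested genes. Of these, 4 were higher (1.66% of all tested genes were) and 2 lower (2.17% were). The groups did not overlap for 6 (12.2%), beside 8.72% of all tested genes. The lists were chosen with earlier results of these data known, so neither share is a test for an excess.

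The list of receptors and enzymes upstream of 2-AG held the smallest p of these genes. Plcb4, a phospholipase C that supplies diacylglycerol downstream of Gq-coupled receptors, read 1962, 2198 and 1919 in WT and 2454, 2709 and 2403 in Hetero. All Hetero values lay above all WT values. The log2 change of Plcb4 was 0.32 with a standard error of 0.07 and an adjusted p of 1 in limma (unadjusted p = 0.00175), and it was between 0.26 and 0.38 when single samples were left out. Of the markers of upper-layer excitatory neurons, 0 of 10 passed the adjusted threshold and 9 of 10 had a higher fitted value, where 50.9% of all tested genes had a lower one. An unadjusted limma p under 0.05 was found for 3 of 10, beside 3.83% of all tested genes. The groups of 2 did not overlap, beside 8.72% of all tested genes. These 10 markers had a median log2 change of 0.10 and overlapping summed levels of 32626 to 35679 in WT and 34831 to 38898 in Hetero. Their part in the Plcb4 values was not tested. Plcb1, its paralog and the next of this list, differed by 0.14 with overlapping groups. Of the 12 genes in this list, 7 had a higher fitted value.

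Among other degrading enzymes, Ptgs2, which encodes the cyclooxygenase COX-2 that oxygenates 2-AG and anandamide, read 414.5, 367.3 and 405.6 in WT and 362.2, 313.0 and 282.9 in Hetero. All Hetero values were below all WT values, with a log2 change of -0.31, a standard error of 0.11 and an adjusted p of 1 in limma (unadjusted p = 0.0194). Without Hetero sample 3 it was -0.23. Ptgs2 is also an activity-regulated gene. Alox12, a lipoxygenase gene, was low throughout (9.551 to 24.6) and differed by 0.38 with a standard error of 0.35.

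Of the receptor partners, Rgs4, a negative regulator of G protein signalling, differed by 0.14 (adjusted p = 1 in limma), and its groups overlapped. Arrb1, which encodes a beta-arrestin, differed by -0.12, with 13830, 14030 and 14410 in WT and 12950, 13600 and 12440 in Hetero. Of the other receptors, Cnr2, the CB2 receptor gene of immune cells, was near the lower limit of testing, with 14.4 ± 4.31 in the WT samples against 18.4 ± 6.73 in those titled Hetero (SD, n = 3 per group). Ppara, a nuclear receptor for N-acylethanolamines, differed by 0.52, and this came from Hetero sample 2 at 204.9, with all other libraries between 53.46 and 71.26. Without that sample its log2 change was -0.05.

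Among genes of other N-acylethanolamine routes, Ptpn22 differed by 0.74 (adjusted p = 1 in limma) at a level of only 12.12 to 36.85, and Abhd4, a lysophospholipase of the NAPE pathway, by -0.11. Of the lipid carriers, Hspa1a, a heat shock protein, differed by 0.26 and had its 3 Hetero values above its 3 WT values, and Fabp3, a fatty acid binding protein, differed by 0.06. For none of these did the adjusted p fall under 0.05.

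**Figure D5:**
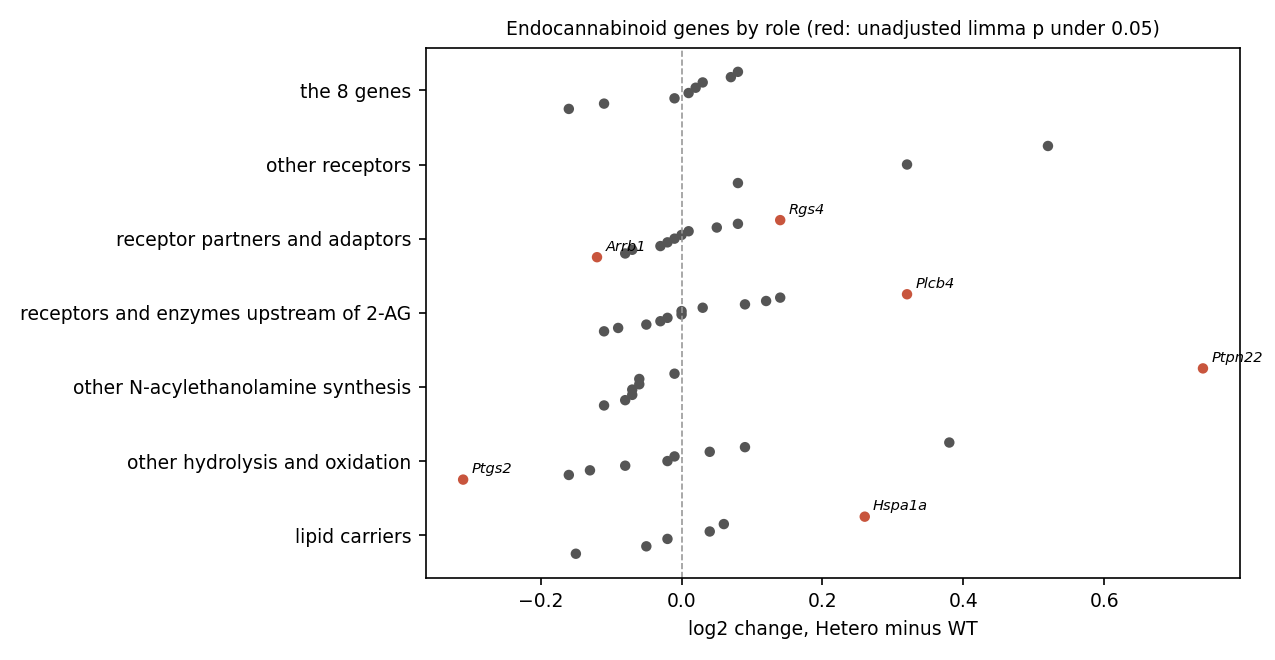
Log2 change of Hetero against WT for the 8 genes and for the 49 tested genes of the 6 other role lists; each point is a gene, and red points had an unadjusted limma p under 0.05. The 8 genes lie between -0.16 and 0.08, and the red points (Plcb4, Ptpn22, Hspa1a, Rgs4, Ptgs2 and Arrb1) belong to the other lists.

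Cell type markers gave the following background for these values, where 50.9% of all tested genes had a lower fitted value. Inhibitory neuron markers summed to 35936 to 38813 in WT and 37253 to 38501 in Hetero. Astrocyte markers had 8 of 10 lower fitted values and summed to 179120 to 202962 and 173396 to 186353. Oligodendrocyte precursor markers had 8 of 8 lower fitted values and a median log2 change of -0.24. They summed to 10808 to 12746 in WT and 9127 to 10921 in Hetero. Of these 8 markers, 4 had an unadjusted limma p under 0.05, beside 3.83% of all tested genes. The groups of 4 did not overlap, beside 8.72% of all tested genes. Deep-layer markers had 10 of 12 lower values. Their sums did not overlap, with 17380 to 18837 in WT and 15794 to 16884 in Hetero. Of the 12 single markers, only 2 (Etv1 and Crym) had groups that did not overlap, beside 8.72% of all tested genes. The same 2 had an unadjusted limma p under 0.05, beside 3.83% of all tested genes. Striatal markers (9 of 10 in the table) summed to 6713 to 7138 in WT and 6627 to 7838 in Hetero. Endothelial and mural markers had a median log2 change of -0.01, myelin markers of -0.06, meningeal markers of 0.23, and those of choroid plexus, olfactory bulb and blood of 0.16. In each list 0 markers passed the adjusted threshold in limma and 0 were at 0 in all libraries. The part of these cells in the levels of the 8 genes was not tested.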

How the data were processed

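The authors deposited 1 table of normalized counts for each gene in each sample, treated as a signal (not whole, never negative, near-equal column totals). Tools named in the submitters' processing notes, without their roles, are Salmon (0.11.2), R (3.6.0) and DESeq2 (1.19.11), with the build GRCm38. For the gene annotation, the scaling and the strand setting, the entry is: not given in the sources used here. Libraries were stranded poly(A), per the labels' protocols. GENCODE M21 matched 17875 of 17889 identifiers. Depth was estimated from the step that made the most values under 60 whole (within 0.02 steps; 15.3% to 27.9% per library). Most were not whole multiples, so no count test was run.

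Log2(value + 1) entered limma 3.58.1 (R 4.3.3; trend and robust fitting, two-sided) over the 14969 genes whose mean reached 10, with Benjamini-Hochberg adjustment over all of them and a threshold of 0.05; log2 changes understate those of low genes. Groups came from the sample titles. The members and lists were chosen with earlier results of these data known. Named genes were the 8 members, Cyfip2 and Cyfip1, in every role list the 2 genes of smallest p, and the 5 most correlated with Cnr1; Rac1 was added for its overlap with Daglb, and 1 gene that this rule names is not reported here. On simulated data of this comparison (14907 genes), limma called 30% of genes changed 1.25-fold, 58% at 1.5-fold, 80% at 2-fold and 98% at 3-fold. The simulation planted 50 changed genes per fold and drew noise independently for each gene and library. These shares may therefore overstate what could be called in the data, where Cyfip2 at a ratio of 0.672 had an adjusted p of 0.31 in limma. Alternatives were other limma settings, voom weights, TMM scaling, median centring, filters, pseudocounts of 0.5 and 8, a replicate block, a residual component and leaving out samples.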

Additional observations from a re-analysis of the deposited data

How the results depend on the processing

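In each of the 17 alternatives 0 of the 8 genes passed the adjusted threshold, with a smallest adjusted p of 0.82 (Cnr1, residual component as covariate). Cnr1 and Daglb kept a lower and Dagla a higher fitted value in all 17. Leaving out 1 sample moved the log2 change of Cnr1 between -0.17 and -0.03 and that of Daglb between -0.26 and -0.10. For the other genes leaving out 1 sample turned the sign of the log2 change. Mgll lay between -0.036 and 0.021, Faah between -0.053 and 0.046, and Abhd12 between -0.0013 and 0.052. Napepld lay between -0.010 and 0.119 and Abhd6 between -0.024 and 0.173, and both turned only without WT sample 3. The sign also turned for Cyfip1 (-0.040 to 0.049). Ppara (0.52 with all samples) lay between -0.050 and 0.866 and changed sign only without Hetero sample 2. Mgll was 0.012 with voom weights, and without the third sample of both groups Mgll was 0.017, Abhd6 -0.016, Cnr2 -0.19 and Fabp3 -0.017. The cause was not tested.

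Over all genes 0 were called, against 2 with a replicate block, 2 with the residual component, 4 without the third sample of both groups (Cyfip2 among them in each of these), and 0 to 1 when single samples were left out. Deviations from the group means had correlations of -0.01, 0.00 and 0.23 between same-numbered samples 1, 2 and 3. Between differently numbered samples they were -0.18 to 0.18. Sample 3 of both groups also stood alike on the residual component (0.60 in WT, 0.51 in Hetero). The blood gene Hba-a1 read 11680 in WT sample 3 and 12570 in Hetero sample 3, against 3757 to 6468 in the other libraries. Hbb-bs, Hbb-bt and Alas2 were also highest in these libraries. Whether the sample 3 libraries share a factor was not tested. With the replicate block the Cnr1 change was -0.11 (adjusted p = 0.95 in limma).

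With the longest transcript as length, the level per kilobase was 798 for Cnr1, 243 for Daglb, 2340 for Mgll, 767 for Faah and 4200 for Abhd12. The hydrolase shares were then 29.2% for Mgll, 8.80% for Abhd6, 52.4% for Abhd12 and 9.57% for Faah. With the union of exons as length and 1 sample left out, the level per kilobase lay between 700 and 741 for Cnr1. For Abhd6 it lay between 650 and 685.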
